A study of Mus musculus with 366 samples.

Results

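The comparison described here sets the aortas of F1 mice bred from RIIIS/J mothers against those of F1 mice bred from C57BL/6J mothers. Its members were the arrays whose strain label is RIIIS/J, 4 in number, and those whose strain label is C57BL/6J, 6 in number, of 366 arrays from 101 strains in the whole series, with all 45141 probe sets in use. The mice belong to the Ath-HMDP, a panel in which inbred strains were crossed to C57BL/6J males that carried human APOE-Leiden and human CETP, a pair of transgenes that raise plasma lipids. All 10 mice were females of 24 weeks that had eaten chow for 8 weeks and then a Western diet for 16 weeks, and all were selected to carry both transgenes. RIIIS/J F1 mice held 1 RIIIS/J and 1 C57BL/6J copy of each autosome and of the X chromosome, so a difference in these data is that of a heterozygote against C57BL/6J on both sides. The transgenes were shared by both groups, and the groups were therefore not compared with mice of normal lipids. Each array held the RNA of 1 mouse, and the tissue was aorta, from its arch down to about the middle of the abdomen, with the fat around it dissected away.

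RIIIS/J is an old inbred strain known for a regulatory allele of B4galnt2, which moves this glycosyltransferase from the gut epithelium to the blood vessel lining and lowers von Willebrand factor in plasma. C57BL/6J for its part is known to lack the class II antigen chain H2-Ea and to carry a deletion in Nnt, a mitochondrial enzyme that makes NADPH. In an atherosclerotic aorta, contractile smooth muscle, endothelium, adventitial fibroblasts and macrophages contribute to the RNA. The expression of cholesterol synthesis genes in any of them is controlled by the sterol-regulated SREBP factors.

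Values are log2 RMA values, a scale on which a difference of 1 is a doubling. A probe set was called when its adjusted p was under 0.05 by limma with Benjamini-Hochberg adjustment over all probe sets. Between the groups 513 probe sets were called, which is 1.14% of those tested, and 5762 had an unadjusted p under 0.05. Of the called probe sets 102 were higher in RIIIS/J F1 (0.226% of all) and 411 were lower (0.91% of all), so that 80.1% of the calls lay on the lower side, against 53.8% of all probe sets. The larger differences were split differently, since 48 of the higher and 73 of the lower calls exceeded 1. Exactly 1 gene symbol was given for 378 of the called probe sets, which stand for 329 genes. With 1 probe set per gene, 241 of 17097 genes were called (1.41%), 42 of them higher (0.246%) and 199 lower (1.16%). The median difference over these genes was -0.02. The C57BL/6J mean of 32 of the higher calls lay under 3.28, the median of all probe sets, as did the RIIIS/J mean of 34 of the lower calls. The arrays of the groups did not overlap in 4.04% of all probe sets and in 4.9% of genes, of which 1.07% were higher and 3.83% lower in RIIIS/J F1.

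Many calls in both directions were lost in 1 or more of the fits that left out 1 array, which also hold fewer arrays. In each of the 10 fits that left out 1 array 163 calls were kept, 46 of them higher and 117 lower. With the 4 consecutively numbered C57BL/6J mice averaged into 1 value, 21 probe sets were called and all were among the 513, 15 higher and 6 lower. Of the named genes these were Gdpd3, Rhbg, Pdxdc1, Gbp2b, St6galnac2, Lbp, Gpt2, Catspere2 and Apoc3.

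**Figure D1:**
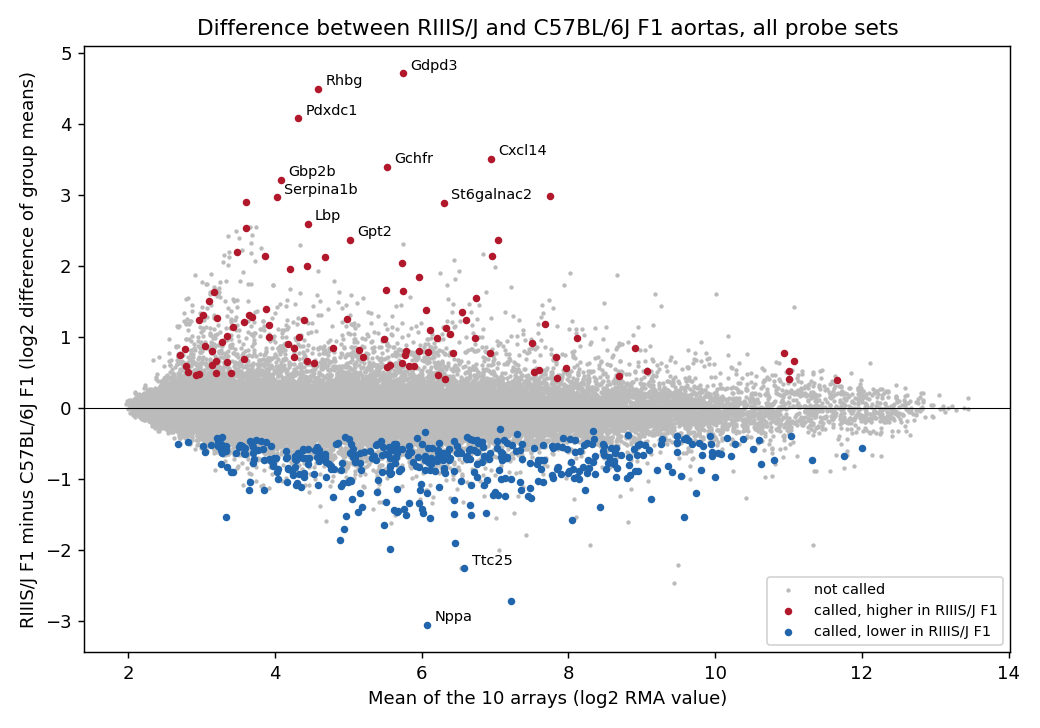
Each point is 1 of the 45141 probe sets, with the mean of the 10 arrays on the x axis (log2 RMA value) and RIIIS/J F1 minus C57BL/6J F1 on the y axis (log2 difference of group means). Red points are the 102 probe sets called higher in RIIIS/J F1 and blue points the 411 called lower; the named genes rise to 4.71 (Gdpd3) and fall to -3.05 (Nppa).

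The arrays differed in what else they held. The defining smooth muscle genes had widely different levels, with Acta2 between 8.88 and 12.82 and Cnn1 between 3.26 and 9.13 over the 10 arrays. Dcn of fibroblasts stayed between 11.39 and 11.95, Pecam1 of endothelium between 5.81 and 7.69, and Pdgfra of fibroblasts between 3.10 and 3.68. The lowest Cnn1 value and all Pdgfra values lay near 3.28, the median of all probe sets, so little can be read from them. Brown fat markers were among the brightest genes on every array, with Ucp1 at 12.67 to 13.05, although the fat around the vessel had been removed. RIIIS/J replicate 2 stood apart, with a correlation of 0.956 to 0.972 with the other arrays, and squamous epithelial keratins were high on it alone: Krt4 was 12.82 there and at most 3.07 on the other arrays. C57BL/6J replicates 3 to 6 came from mice with consecutive numbers and correlated at 0.992 to 0.996 with each other, whereas C57BL/6J pairs that held replicate 1 or 2 correlated at 0.973 to 0.988. The labels give no litter, batch or date, so the p-values measure the spread between these mice, and what the consecutive mice shared was not tested. In whole tissue, fewer cells of a type and less RNA per cell cannot be told apart.

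The transcripts that differed most were all higher in RIIIS/J F1. Gdpd3, a lysophospholipase D that makes lysophosphatidic acid, read 8.67, 8.52, 8.44 and 8.66 in RIIIS/J F1 and 4.84, 3.49, 3.76, 3.76, 3.53 and 3.76 in C57BL/6J F1. All RIIIS/J arrays lay far above all C57BL/6J arrays, of which replicate 1 was the highest. The difference was 4.71 (SE 0.23, adjusted p = 5.16e-06 by limma), which is 26.2-fold. Rhbg, an ammonia transporter of epithelia, stood at 7.10, 7.12, 7.90 and 7.03 against 2.89, 2.65, 2.80, 2.64, 2.74 and 3.04. Its C57BL/6J values were all under the median of all probe sets, and RIIIS/J replicate 3 was the highest. The difference came to 4.50 (SE 0.17, adjusted p = 5.34e-07). The 24 genes with the largest calls were chosen for groups that did not overlap, which alone fixes the exact two-sided permutation p over the 210 ways to choose 4 of the 10 arrays at 0.00476, the smallest it allows, and nothing is read from it.

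Glycosyltransferases formed a pair among the higher genes. St6galnac2, which adds sialic acid to the core sugars of mucin-type glycans, was 8.16, 7.87, 8.36 and 7.79 in RIIIS/J F1 and 5.30, 4.92, 5.07, 5.20, 5.09 and 5.35 in C57BL/6J F1. The spread within each group was small beside the gap of 2.89 (SE 0.13, adjusted p = 2.16e-06). B4galnt2, whose product adds the terminal sugar of the Sda blood group antigen, read 4.2, 4.08, 3.55 and 4.76 against 2.59, 2.41, 2.58, 2.69, 2.32 and 2.53. RIIIS/J replicate 3 was the lowest of its group and still lay above every C57BL/6J array, with a difference of 1.63 (SE 0.19, adjusted p = 0.00389). The other B4galnt2 probe set differed by 0.18 (adjusted p = 0.548), and the other St6galnac2 probe set, which was dim in both groups, by 0.60 (adjusted p = 0.0606). Of the 20 sialyl and blood group glycosyltransferases measured, these 2 were called, both higher, against 0.246% of all genes called higher, and the other 18 were not, between St3gal6 at -0.57 and St3gal2 at 0.24. Vwf, the gene of von Willebrand factor, the carrier of factor VIII, read 7.64, 7.43, 7.49 and 7.55 in RIIIS/J F1. In C57BL/6J F1 it read 7.73, 6.59, 7.80, 8.04, 7.29 and 7.27. These groups overlapped fully, and the difference was 0.07 (SE 0.24, adjusted p = 0.942). The values are of RNA in the aorta and say nothing of von Willebrand factor in plasma, which these arrays do not measure. None of the 12 measured genes of endothelial haemostasis was called, against 1.41% of all genes.

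Cxcl14, Gbp2b and Lbp were also among the 12 largest higher calls. Cxcl14, a chemokine of epithelium and fat, read 8.61, 9.06, 10.49 and 8.05 against 5.87, 6.46, 5.15, 5.49, 4.74 and 5.51, a difference of 3.52 (SE 0.45, adjusted p = 0.00595). The lowest RIIIS/J array was above the highest C57BL/6J array by more than the SD of either group, 1.04 and 0.59. Its dimmer probe set differed by 1.33 (adjusted p = 0.177). Gbp2b, a guanylate-binding protein induced by interferon gamma, was 6.2, 5.5, 5.97 and 6.37 in RIIIS/J F1 and 3.57, 2.61, 2.54, 3.01, 2.45 and 2.58 in C57BL/6J F1, so that only C57BL/6J replicate 1 rose above the median of all probe sets. It differed by 3.22 (SE 0.24, adjusted p = 0.000178). The other 11 interferon-induced GTPases measured were not called, between Gbp10 at -0.44 and Gbp8 at 0.50, against 1.41% of all genes called. Lbp, the plasma protein that hands bacterial lipopolysaccharide to CD14, read 5.79, 5.74, 6.57 and 5.91 against 3.61, 3.12, 3.40, 3.49, 3.30 and 3.53. Both of its probe sets were called, at 2.59 (adjusted p = 5.97e-05) and 2.15 (adjusted p = 0.000261). Of the interferon-stimulated list, 20 of 27 genes had a negative difference, against 9564 of 17097 over all genes. Its 1 call, against 0.246% of all genes called higher, was Ifi44l at 0.83 (adjusted p = 0.0423). That call was kept in 1 of the 10 fits that each left out 1 array, with an adjusted p of up to 0.103. Its group means, 3.27 in RIIIS/J F1 and 2.44 in C57BL/6J F1, lay under 3.28, the median of all probe sets. Another Ifi44l probe set was also called higher, at 0.74 (adjusted p = 0.019), and the remaining one differed by -0.00384 (adjusted p = 0.991).

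Among 12 class II genes H2-Ea alone was called, at 1 of its probe sets, against 0.246% of all genes called higher. H2-Ea read 4.91, 4.35, 4.40 and 6.95 in RIIIS/J F1 and 3.30, 2.91, 2.91, 2.87, 3.18 and 2.85 in C57BL/6J F1. RIIIS/J replicate 4 was well above the other RIIIS/J arrays, and the same array had the highest level of B cell genes, with Jchain at 10.49 against 4.12 to 7.16 on the other 9 arrays. The difference was 2.14 (SE 0.43, adjusted p = 0.0457), and this call was kept in 2 of the 10 fits that left out 1 array, those without RIIIS/J replicates 3 and 4. The difference was 1.54 without replicate 4, and the adjusted p rose to 0.108 at most. The other H2-Ea probe sets differed by 0.73 (adjusted p = 0.200) and 0.06 (adjusted p = 0.805) and were not called. The part of B cell content in these values was not tested. The other 11 class II genes, among them H2-Aa at -0.60 and H2-Eb1 at -0.04, were not called. In class I, H2-Q10, which encodes a secreted class I molecule, fell by 1.16 (SE 0.17, adjusted p = 0.0125). Its mean went from 8.69 ± 0.11 (SD, n = 6) to 7.53 ± 0.45 (SD, n = 4). H2-Q10 was the only call among 17 measured genes, against 1.16% of all genes called lower.

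The remaining large higher calls were Gchfr, Gpt2, Serpina1b and Catspere2. Gchfr, which binds and restrains the enzyme that makes tetrahydrobiopterin, the cofactor of nitric oxide synthases, read 7.22, 6.99, 8.45 and 7.61 against 5.65, 4.41, 3.97, 3.52, 3.47 and 4.01 (difference 3.40, SE 0.42, adjusted p = 0.00527). C57BL/6J replicate 1 was the nearest to the RIIIS/J arrays and still 1 unit or more below them. Gpt2, the mitochondrial alanine transaminase, was called at all 3 of its probe sets, with differences of 2.37, 2.01 and 0.99 (adjusted p from 8.18e-05 to 0.016). Its largest difference came from 6.82, 6.55, 6.43 and 5.99 in RIIIS/J F1 and 4.30, 4.23, 4.01, 3.93, 4.22 and 3.80 in C57BL/6J F1, with no overlap. Serpina1b, a liver protease inhibitor of the alpha-1 antitrypsin family, read 5.61, 5.07, 5.38 and 7.19 against 3.16, 2.27, 2.75, 2.94, 2.79 and 3.12 (difference 2.97, SE 0.36, adjusted p = 0.00483). Its probe sets share probes with its close paralogs, so which member of the family gave the signal cannot be told apart. Albumin, the leading hepatocyte gene, was 2.26 to 2.68 on the RIIIS/J arrays and 2.32 to 4.29 on the C57BL/6J arrays. Mup3, another hepatocyte gene, was 3.07 to 8.17 and 6.79 to 8.15 (difference -2.25, adjusted p = 0.235). Of 16 hepatocyte genes measured 13 had a negative difference. Called were Serpina1b, higher, and Apoc3, lower, against 0.246% and 1.16% of all genes. Catspere2, of a sperm ion channel, differed by 2.20 (SE 0.14, adjusted p = 6.14e-05), from 4.96, 4.67, 4.42 and 5.18 against values of 2.40 to 2.77.

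Some genes gave opposite answers at different probe sets. Pdxdc1, a decarboxylase-like gene, had 1 probe set at 6.73, 6.77, 6.40 and 7.18 in RIIIS/J F1 and 2.63 to 2.76 in C57BL/6J F1, a difference of 4.08 (SE 0.12, adjusted p = 1.16e-07). Another and brighter probe set of Pdxdc1 was lower, at 7.03 ± 0.12 (SD, n = 4) against 8.07 ± 0.06 (SD, n = 6), with a difference of -1.04 (adjusted p = 0.000146). Tspan18, a tetraspanin of endothelium, chosen here after its values were seen because it was the only other gene of this kind, had a probe set at 7.13, 5.82, 7.29 and 7.60 against 3.95 to 5.46 (difference 2.04, adjusted p = 0.0287) and another at 7.38, 6.91, 6.68 and 7.43 against 8.32 to 9.27 (difference -1.58, adjusted p = 0.0119). Over the array, 201 called genes had more than 1 probe set, and every probe set was called for 20 of them and some but not all for 181. The higher Tspan18 call was kept in 3 of the 10 fits that left out 1 array, with an adjusted p of up to 0.0797, and the lower in all 10. Why probe sets of 1 gene differed was not tested.

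**Figure D2:**
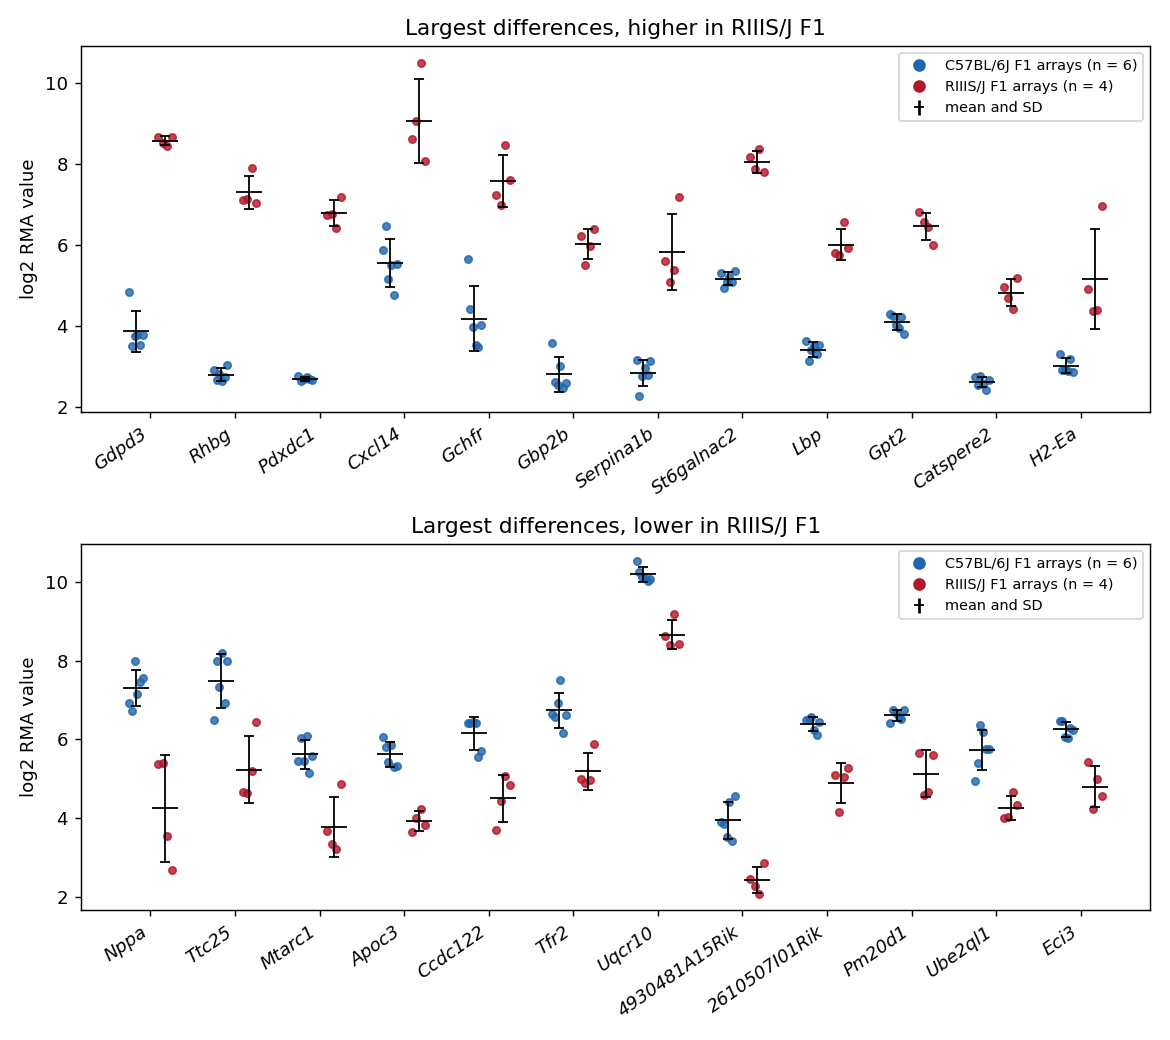
Each point is 1 array (y axis, log2 RMA value) for the 12 genes with the largest called positive difference (top) and the 12 with the largest called negative difference (bottom), with C57BL/6J F1 in blue (n = 6), RIIIS/J F1 in red (n = 4), and bars for the mean and SD. In none of the 24 genes do the groups overlap; the nearest arrays of the groups lie farthest apart in Rhbg, and Nppa and H2-Ea have the widest spread among RIIIS/J arrays.

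The largest lower calls were smaller and came from a mixed set of genes. Nppa, the atrial natriuretic peptide, read 5.38, 5.40, 3.54 and 2.68 in RIIIS/J F1 and 6.92, 6.73, 8.00, 7.15, 7.46 and 7.55 in C57BL/6J F1, a difference of -3.05 (SE 0.51, adjusted p = 0.0215). The RIIIS/J arrays fell into 2 higher and 2 lower values, and none reached a C57BL/6J array. Cardiac muscle genes as a whole did not follow it: 8 of 10 had a positive difference, against 7533 of 17097 over all genes, with a list median of 0.48. Nppa was the only call, against 1.16% of all genes called lower, and Myl7, an atrial myosin light chain, was 9.39 to 11.47 in RIIIS/J F1. The Nppa call was lost without C57BL/6J replicate 3, 4 or 6, with an adjusted p of up to 0.0583. Ttc25, of the cilium, read 4.65, 4.64, 5.19 and 6.44 against 6.5 to 8.19 (difference -2.26, adjusted p = 0.0343), and Mtarc1, a mitochondrial reductase of amidoximes, read 3.67, 3.34, 3.21 and 4.87 against 5.14 to 6.09 (difference -1.85, adjusted p = 0.0219). RIIIS/J replicate 4 was the highest of its group in both, and these calls were kept in 3 and 4 of the 10 fits that left out 1 array, with an adjusted p of up to 0.119 and 0.0777.

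Apoc3, an apolipoprotein that slows the clearance of triglyceride-rich particles, read 3.65, 4.0, 4.22 and 3.82 in RIIIS/J F1 and 6.05, 5.81, 5.41, 5.85, 5.29 and 5.33 in C57BL/6J F1. The groups were tight and 1 unit or more apart, with a difference of -1.70 (SE 0.17, adjusted p = 0.00192). Uqcr10, a subunit of respiratory complex III, was 8.61, 8.39, 9.19 and 8.42 against 10.02 to 10.54 (difference -1.54, SE 0.16, adjusted p = 0.00243). A second Uqcr10 probe set was also called, at -1.19 (adjusted p = 0.00826), but the brightest of its 3 was not, at 11.89 against 12.06 (difference -0.18, adjusted p = 0.458). Pm20d1, which joins fatty acids to amino acids in brown fat, read 5.66, 4.58, 4.65 and 5.61 against 6.42 to 6.75 (difference -1.48, adjusted p = 0.0119). Eci3, an isomerase of fatty acid oxidation, differed by -1.46 (adjusted p = 0.00978), and 2610507I01Rik, of unstated function, by -1.50 (adjusted p = 0.00731). For these 5 genes the call at the probe set with the largest difference was kept in each of the 10 fits that left out 1 array. Calls on Ccdc122 (-1.65), Tfr2, the second transferrin receptor (-1.55), 4930481A15Rik (-1.53) and Ube2ql1 (-1.46) were each lost without 1 or more arrays, RIIIS/J replicate 2 in every case, with an adjusted p of up to 0.0947.

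The position of RIIIS/J among the other strains differed from gene to gene. For 5 of the 12 genes with the largest higher calls, the RIIIS/J mean was the highest of the 101 strain means: Gdpd3, Rhbg, St6galnac2, Lbp and Catspere2. Gdpd3 was nearly as high in C57L/J F1 at 8.30, SM/J F1 at 8.20, LP/J F1 at 8.16 and 129X1/SvJ F1 at 8.15. It was also high in KK/HlJ, MA/MyJ, NON/ShiLtJ, I/LnJ and FVB/NJ F1, from 8.02 to 7.79, so the high level was shared by many strains. For Catspere2 the next strain was far below, as the other 99 strains reached at most 3.12 against 4.81 in RIIIS/J, and C57BL/6J ranked 34th. Rhbg was shared in its high level with MA/MyJ F1 alone, at 7.07, the next strain being NOD/ShiLtJ at 4.15. St6galnac2 in AKR/J F1, at 8.015, and Lbp in KK/HlJ F1, at 5.985, did not differ from RIIIS/J by more than the SD of the RIIIS/J arrays, 0.26 and 0.38. The next strains were NZB/BlNJ at 7.40 and NZW/LacJ at 7.39 for St6galnac2, and SJL/J at 5.17 for Lbp. B4galnt2 in RIIIS/J ranked 5th, below SWR/J, KK/HlJ, LG/J and MA/MyJ, which ran from 4.92 to 4.28. In all 5 of the top-ranked genes and in B4galnt2 the RIIIS/J mean was called above the mean of the other 99 strains. That comparison called 1.93% of all probe sets. The 5 genes had been picked by their high RIIIS/J means, so nothing is read from their calls in RIIIS/J. In none of these genes was the C57BL/6J mean called apart from the other strains.

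In other genes the C57BL/6J mean was also away from the mean of the other strains. For Gchfr the C57BL/6J mean was 2.14 below the mean of the other strains and that of RIIIS/J 1.26 above, and both were called. RIIIS/J ranked 54th and C57BL/6J 65th, and the RIIIS/J mean of 7.57 lay under the other strains' median of 7.79. The comparison of C57BL/6J with the other strains called 3.62% of all probe sets. H2-Ea in RIIIS/J F1 ranked 53rd and was not called against the other strains (-0.41, adjusted p = 0.451), whereas C57BL/6J was 2.55 below them. Pdxdc1 (rank 21), Cxcl14, Gbp2b and Serpina1b (rank 20 each) were high in RIIIS/J F1 together with many other strains. On the lower side RIIIS/J F1 had the lowest mean of all strains for Pm20d1, at 5.13 against 5.57 in LG/J, and ranked 100th for Ttc25, Mtarc1 and Apoc3, where LG/J was the lowest. For 4930481A15Rik and 2610507I01Rik C57BL/6J ranked 3rd from the top.

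**Figure D3:**
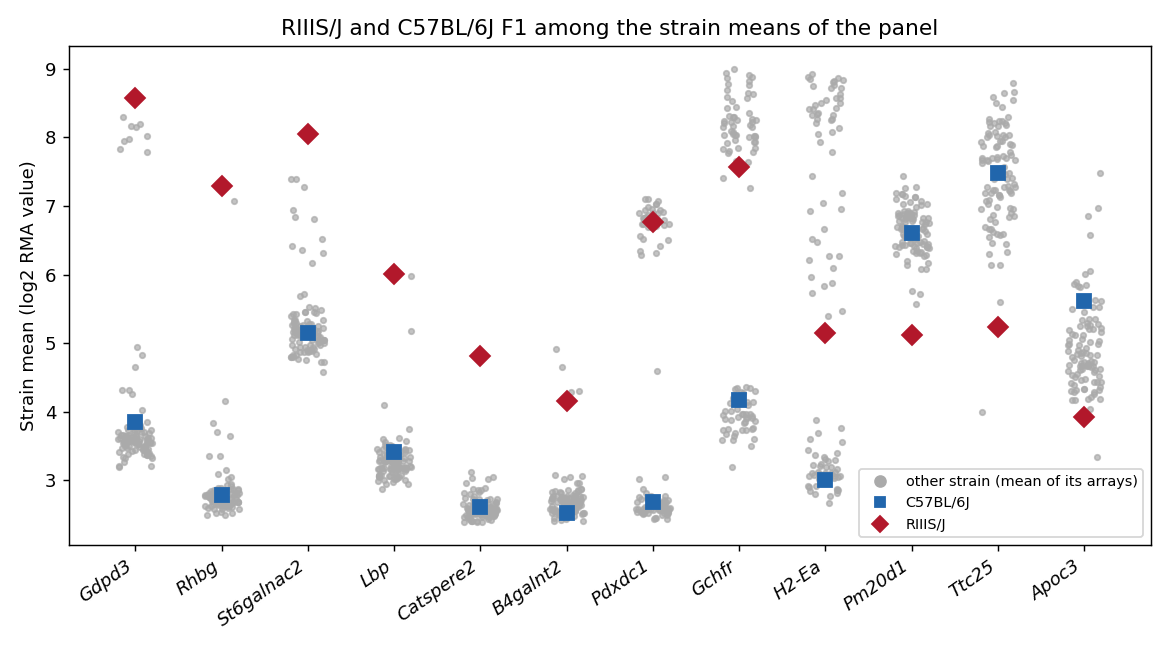
Each grey point is the mean of 1 of the other 99 strains (y axis, log2 RMA value), the blue square is C57BL/6J and the red diamond RIIIS/J, for 12 named genes. RIIIS/J is the highest of 101 strains in the first 5 genes and the lowest in Pm20d1, while for Gchfr and H2-Ea the other strains form a high and a low cluster.

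Of 17 measured genes of cholesterol synthesis, 14 had a negative difference, 5 were called lower and none higher, against 1.16% of all genes called lower, and in 7 of the 17 the RIIIS/J arrays all lay below the C57BL/6J arrays, against 3.83% of all genes. The median difference of the list was -0.63, and that of all genes was -0.02. On every RIIIS/J array the median deviation of the list was below that of every C57BL/6J array, at -0.68, -0.59, -0.56 and -0.46 against -0.31 to 0.34. The called genes span the pathway. Idi1, the isopentenyl diphosphate isomerase, read 7.74, 7.78, 8.09 and 7.93 in RIIIS/J F1 and 8.33, 8.81, 8.52, 8.87, 8.56 and 8.78 in C57BL/6J F1 (difference -0.76, SE 0.12, adjusted p = 0.0173). Fdps, which makes farnesyl diphosphate, read 6.83, 7.60, 7.42 and 7.46 against 7.91 to 8.55 (difference -0.86, adjusted p = 0.0383). Of the later steps, Nsdhl, a sterol dehydrogenase, read 7.95, 7.90, 8.32 and 8.53 against 8.69 to 9.23 (difference -0.74, adjusted p = 0.0467), and Dhcr7, which makes cholesterol from its last precursor, read 5.94, 6.23, 5.96 and 6.31 against 6.58 to 7.0 (difference -0.63, adjusted p = 0.0383). Insig1, the sterol-induced brake on SREBP processing and itself an SREBP target, read 9.39, 8.49, 8.55 and 9.03 against 9.57 to 9.77 (difference -0.81, adjusted p = 0.0417). Dhcr7 is named as the fifth called member and was chosen after its values were seen.

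The other 12 members were not called. Cyp51 at -0.99 (adjusted p = 0.0562) and Lss at -0.89 (adjusted p = 0.105) had the largest negative differences without a call, and Hmgcs1, which makes the substrate of the rate-limiting reductase, stood at 0.30 (adjusted p = 0.824) with C57BL/6J values from 3.06 to 5.38. Srebf2, the gene of an SREBP factor, differed by 0.06. Against the other 99 strains no member of the list was called in RIIIS/J, where the list median was -0.39. In C57BL/6J the list median was 0.22, and 1 member, Insig1, was called above the other strains (0.36, adjusted p = 0.0494). That comparison called 3.62% of all probe sets. The second probe set of Idi1 was also called, at -1.16 (adjusted p = 0.035). The call at the first was lost without RIIIS/J replicate 1 or 2 (adjusted p up to 0.0614) and kept in the other 8 fits that left out 1 array. Those on Nsdhl, Insig1 and Dhcr7 were kept in 2 and that on Fdps in 0, with adjusted p up to 0.151, 0.121, 0.097 and 0.0844. The median of the list ran from -0.79 to -0.54 with each array left out in turn.

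**Figure D4:**
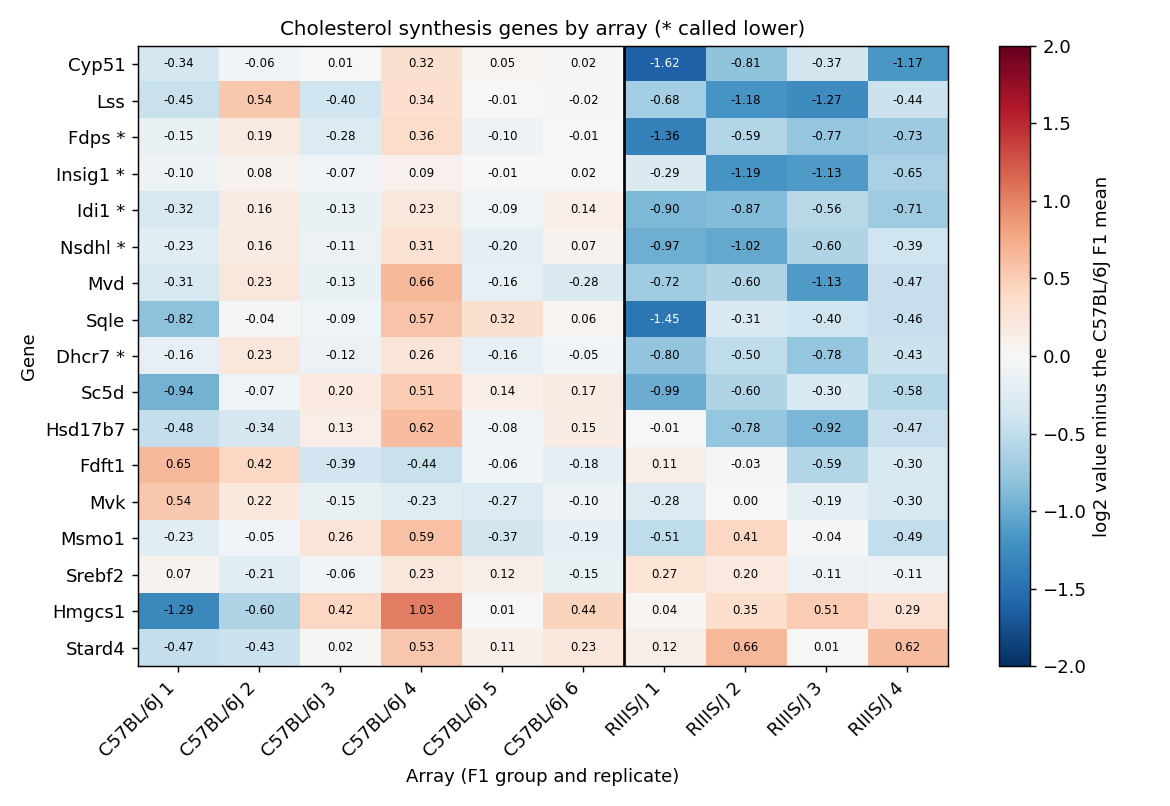
Rows are the 17 measured cholesterol synthesis genes and columns the 10 arrays; each cell is the log2 value minus the C57BL/6J F1 mean of that gene, from blue (lower) to red (higher), and a star marks the 5 called genes. The RIIIS/J columns are blue in most genes, and C57BL/6J replicate 1 is also low for Hmgcs1, Sc5d and Sqle.

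The promoters of these genes are shown for 3 called members and for Hmgcs1; as background, SREBP factors are known to act beside NF-Y, which binds the CCAAT box. What moved these genes was not tested. Sequences of 300 bases, from 250 before to 50 after the annotated start, were taken from a table of RefSeq promoters (GRCm38.p6), in which 13 of the 17 genes were matched; Fdps was not among them. The letters CCAAT, on either strand, occurred in 12 of these 13 and in 37.4% of all 32851 promoters of that length. The letters of a sterol response element, TCACCCCAC, on either strand, occurred in 1 of the 13, Hmgcs1, and in 0.551% of all promoters. The motifs do not overlap each other, and capitals mark them below for 3 called genes and for Hmgcs1, which holds both and was not called.
Idi1, chr13:8885356-8885655, plus strand: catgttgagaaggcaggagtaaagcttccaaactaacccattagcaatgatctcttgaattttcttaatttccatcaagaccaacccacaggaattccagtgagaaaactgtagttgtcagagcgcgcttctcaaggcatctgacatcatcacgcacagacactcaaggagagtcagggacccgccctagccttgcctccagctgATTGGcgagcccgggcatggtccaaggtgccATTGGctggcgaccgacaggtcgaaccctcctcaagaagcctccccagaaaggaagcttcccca
Nsdhl, chrX:72918271-72918570, plus strand: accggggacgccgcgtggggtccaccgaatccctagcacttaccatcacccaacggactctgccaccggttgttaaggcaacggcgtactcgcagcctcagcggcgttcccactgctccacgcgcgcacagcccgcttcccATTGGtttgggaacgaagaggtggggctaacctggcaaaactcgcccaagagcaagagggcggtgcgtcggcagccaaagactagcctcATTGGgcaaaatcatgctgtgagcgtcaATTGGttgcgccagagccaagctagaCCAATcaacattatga
Insig1, chr5:28071162-28071461, plus strand: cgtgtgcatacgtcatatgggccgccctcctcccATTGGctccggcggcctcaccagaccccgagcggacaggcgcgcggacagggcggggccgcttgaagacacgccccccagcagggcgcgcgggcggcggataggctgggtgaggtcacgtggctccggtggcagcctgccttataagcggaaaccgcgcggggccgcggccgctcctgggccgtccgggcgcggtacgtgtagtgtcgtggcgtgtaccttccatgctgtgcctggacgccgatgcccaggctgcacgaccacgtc
Hmgcs1, chr13:119690101-119690400, plus strand: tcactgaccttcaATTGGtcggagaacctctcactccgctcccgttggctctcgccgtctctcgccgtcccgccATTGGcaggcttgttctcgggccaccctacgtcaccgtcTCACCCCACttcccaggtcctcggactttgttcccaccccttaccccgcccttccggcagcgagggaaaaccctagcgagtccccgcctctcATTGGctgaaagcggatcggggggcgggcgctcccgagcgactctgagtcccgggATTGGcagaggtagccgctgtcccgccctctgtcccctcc
Nsdhl holds 4 CCAAT boxes, Idi1 2 and Insig1 1, and the Dhcr7 window used held 0. The letters are those of the C57BL/6J reference, and a match is not a measured binding site.

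Of 30 antioxidant and glutathione genes 3 were called, all lower, against 1.16% of all genes called lower. Gstm5, a mu-class glutathione transferase, read 8.17, 8.32, 8.47 and 7.88 against 8.99 to 9.48 (difference -0.99, SE 0.13, adjusted p = 0.00839), and the RIIIS/J mean was the lowest of all 101 strains. Its neighbour in function Gstm1 differed by -0.89 (adjusted p = 0.0214), and the mitochondrial peroxiredoxin Prdx3 by -0.40 (adjusted p = 0.0457), from 11.20 ± 0.09 (SD, n = 6) to 10.80 ± 0.13 (SD, n = 4). The Gstm5 call was kept in all 10 fits that left out 1 array, that on Gstm1 in 7 (lost without C57BL/6J replicate 2 or 4 or RIIIS/J replicate 1, adjusted p up to 0.0584) and that on Prdx3 in 1 (adjusted p up to 0.152). Another Gstm1 probe set was called, at -0.79 (adjusted p = 0.0303). Its remaining probe sets were not, at -0.75 (adjusted p = 0.0871) and -0.22 (adjusted p = 0.639). Nnt, whose C57BL/6J allele is deleted in part, read 5.74, 7.37, 7.55 and 5.93 in RIIIS/J F1 and 4.93 to 6.53 in C57BL/6J F1. The groups overlapped, and the difference was 0.86 (SE 0.44, adjusted p = 0.463). The other Nnt probe set differed by 1.18 (adjusted p = 0.176), with overlap and without a call. Of the other known strain alleles, Gabra2, a GABA receptor subunit that is low in C57BL/6J brain, and Trbv13-2, a T cell receptor segment, each differed by -0.01 and were not called. Of 30 subunits of oxidative phosphorylation 25 had a negative difference, against 9564 of 17097 over all genes, with a median of -0.10. None was called, against 1.41% of all genes (the list does not include Uqcr10). The C57BL/6J arrays spanned -0.03 to 0.03 in this list and RIIIS/J arrays -0.18 to 0.03. Acads, of short-chain fatty acid oxidation, differed by -0.50 (adjusted p = 0.0445), a call kept in 2 of the 10 fits (adjusted p up to 0.148). Lysosomal genes held 2 calls of 21, both lower, against 1.16% of all genes called lower. They were Lipa, the acid lipase that frees cholesterol from taken-up lipoproteins (-0.98, adjusted p = 0.0457), and the channel Mcoln1 (-0.49, adjusted p = 0.0472), each kept in 1 of the 10 fits that left out 1 array, with an adjusted p of up to 0.146 and 0.113. The other 2 probe sets of Lipa were called as well, at -1.27 (adjusted p = 0.00517), kept in all 10 fits, and at -0.79 (adjusted p = 0.0295), kept in 4. In the first-named Lipa probe set RIIIS/J replicate 4, at 8.71, overlapped with the lowest C57BL/6J array, at 8.69.

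All 22 contractile smooth muscle genes had a positive difference, with a median of 1.39, and none was called, the nearest being Actg2 at 1.92 (adjusted p = 0.0543). Acta2, the smooth muscle actin, read 11.98, 12.33, 10.60 and 12.82 in RIIIS/J F1 and 9.39, 8.88, 10.71, 10.80, 11.69 and 11.54 in C57BL/6J F1. RIIIS/J replicate 3 lay among the C57BL/6J arrays, and C57BL/6J replicates 1 and 2 were the lowest of all (difference 1.43, SE 0.60, adjusted p = 0.35). Against the other strains, 10 of the 22 genes were called lower in C57BL/6J and 0 were called in RIIIS/J. These comparisons called 3.62% and 1.93% of all probe sets in either direction. Endothelial genes had a positive difference in 14 of 16 with a median of 0.30 and no call, and collagens in 16 of 22 with a median of 0.09 and no call. Macrophage genes had a negative difference in 20 of 25 with a median of -0.13 and no call, and no foam cell gene was called. The macrophage list stood at 0.79 on C57BL/6J replicate 1. It ran from -0.33 to 0.01 on the other C57BL/6J arrays and from -0.44 to 0.02 on the RIIIS/J arrays. With each array left out in turn its median difference ran from -0.22 to 0.02, so its sign depended on single arrays. Over all 17097 genes, 7533 had a positive and 9564 a negative difference, and 1.41% were called. For these lists a p over the threshold does not show that the groups were alike.

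Marker lists of other tissues varied widely between arrays. Skeletal muscle genes had a list median from -3.62 to 2.90 over the RIIIS/J arrays, with Acta1, the skeletal actin, at 3.20, 12.97, 12.72 and 2.98 there. None of the 18 was called, against 1.41% of all genes. The squamous epithelial list had a median difference of 1.43, which was -0.07 without RIIIS/J replicate 2, and none of its 14 genes was called. Brown and general adipocyte genes differed by medians of -0.02 and 0.00 with no call. Among white fat genes Sncg, gamma-synuclein, was the 1 call of 8, against 0.246% of all genes called higher. It read 8.70, 8.38, 8.07 and 8.41 against 6.57 to 7.73 (difference 1.19, SE 0.22, adjusted p = 0.0305). The call was kept in 4 of the 10 fits that left out 1 array (adjusted p up to 0.0947).

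**Figure D5:**
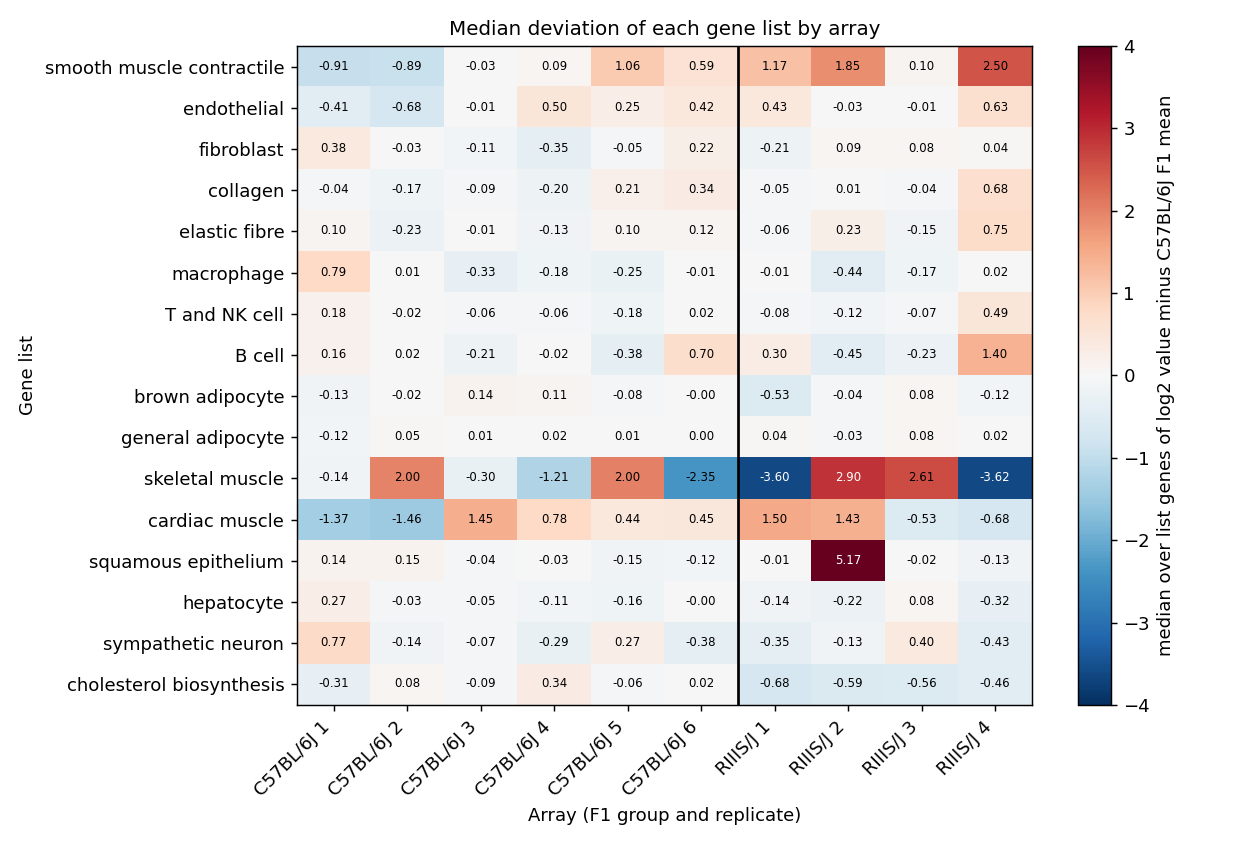
Rows are gene lists and columns the 10 arrays; each cell is the median over the list's genes of the log2 value minus the C57BL/6J F1 mean, from blue (lower) to red (higher). RIIIS/J replicate 2 carries the squamous epithelial signal (5.17), skeletal muscle runs from -3.62 to 2.90, and the cholesterol synthesis list is below all C57BL/6J arrays on each RIIIS/J array.

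With 1 probe set per gene, 220 called genes had no called neighbour, and 8 pairs of called genes lay side by side. The longest run of neighbouring called genes had 3 members, Rhobtb3, Rfesd and Arsk on chromosome 13, of which the first differed by 0.64 (adjusted p = 0.0158) and the others by -0.63 and -0.46 (adjusted p = 0.0341 and 0.0344). The calls on Rfesd and Arsk were kept in 3 and 2 of the 10 fits that left out 1 array (adjusted p up to 0.119 and 0.117), and that on Rhobtb3 in all 10. The order of genes was read from GRCm38.p6, as the deposited table names no assembly. A further pair, named after its values were seen, was Ifi202b (1.96, adjusted p = 0.00168) and Ifi205 (-0.93, adjusted p = 0.033), interferon-induced genes of the same family on chromosome 1, which moved in opposite directions; the second call was kept in 2 of the 10 fits that left out 1 array (adjusted p up to 0.103). Over the autosomes, the share of genes called ran from 0.581% on chromosome 15 to 2.6% on chromosome 13.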

How the data were processed

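Aortic RNA was hybridised to Affymetrix HT_MG-430 PM arrays, 1 per mouse. The authors' deposited log2 values had been made with GCOS and RMA according to the submitters' processing notes, whose versions are not given in the sources used here; RMA subtracts background, makes array distributions alike and summarises the probes of a set, so dim transcripts are compressed towards a floor. The deposited log2 table held 45141 probe sets for 366 arrays and no detection calls or depth, and the medians of the arrays ran from 3.17 to 3.4. A few arrays per group, 4 and 6 here, limit the precision.

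Groups were taken from the strain label. Symbols came from the platform annotation and were updated through Entrez IDs to GRCm38.p6, where 99.3% of those with 1 symbol were found; 28898 probe sets had 1 symbol, 551 several and 15692 none, and no gene was named from a set with several. For a gene with several probe sets, lists used the one with the highest mean over all arrays. Group means were compared with limma 3.58.1 (lmFit, eBayes) in R 4.3.3 on the 10 arrays, with Benjamini-Hochberg adjustment over all probe sets and a threshold of 0.05, and single genes also by an exact two-sided permutation test of the difference of means. Contrasts of RIIIS/J and of C57BL/6J with the mean of the other 99 strains came from a limma fit with 1 mean per strain over all arrays; they share the other strains and, with the main comparison, their own arrays. On simulated data for all 45141 probe sets with the variance of the 10 arrays, 77 of 100 differences of size 1 and 97 of 100 of size 2 were called, with 12 false calls. The simulated noise was independent from array to array. The closer correlation of the consecutively numbered C57BL/6J mice was not simulated, so these counts do not cover it.

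The genes named were the 12 largest called differences in each direction with groups that did not overlap, the known strain alleles, up to 4 called members of each of 41 gene lists (649 of 752 genes measured; the brightest member where none was called) and runs of 3 or more called neighbours. Members, lists and tests were chosen with earlier results of these data known. Further genes, given as the ends or defining markers of a list or beside a called gene, were named after their values were seen. Lists are described by counts and medians only. Alternatives were another variance model, array weights, rescaling, a filter on dim probe sets, 1 probe set per gene, a minimum difference of 0.5, each array left out, other probe sets, and the consecutively numbered C57BL/6J mice averaged into 1 value.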

Additional observations from a re-analysis of the deposited data

Results flagged for a closer look

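In 72 named probe sets, each group was searched for an array whose gap to the nearest other array took up most of the range of the group; chance alone marks about 1 in 20 groups, so that 3 marks in these groups are few. In Gdpd3, C57BL/6J replicate 1 read 4.84, above the other C57BL/6J arrays at 3.49 to 3.76 and below all RIIIS/J arrays; without it the difference was 4.91. In Rhbg, RIIIS/J replicate 3 read 7.90, above the other RIIIS/J arrays at 7.03 to 7.12, and without it the difference was 4.29. In Tfr2, RIIIS/J replicate 4 read 5.88, above the other RIIIS/J arrays at 4.90 to 4.98, and the difference without it was -1.78. None of these 3 arrays changed the direction or ended the call on its gene when it was left out.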

How the results depend on the processing

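Against 513 probe sets called (102 higher, 411 lower), 1 spread shared by all strains gave 1885 (462 and 1423), with 473 of the 513 among them, 1 probe set per gene gave 295 (56 and 239), with adjustment over those alone, a minimum difference of 0.5 gave 31 (24 and 7), and averaging the 4 consecutively numbered C57BL/6J mice into 1 value, which leaves fewer samples, gave 21 (15 and 6). The share of calls on the lower side was 80.1% and fell to 22.6% with the minimum difference and 28.6% with the averaging, and to 71.2% when the arrays were quantile-normalized again. Leaving out each array in turn gave 195 to 645 calls, 49 to 150 of them higher and 146 to 520 lower; the lowest counts came without C57BL/6J replicate 4, the highest without RIIIS/J replicate 4 (for higher calls, replicate 3), and without RIIIS/J replicate 2 they were 225 (64 and 161). Also over 1.5 times fewer calls came without C57BL/6J replicate 2 (295), 3 (214) or 6 (229) and without RIIIS/J replicate 1 (313). In all 10 of these fits 163 calls were kept, 46 higher and 117 lower. The comparison with the 4 consecutive C57BL/6J mice alone, chosen after seeing the data, gave 362. The other settings stayed within 1.5 times.

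Of 41 named called probe sets, 9 kept their call with the consecutive mice averaged: Gdpd3, Rhbg, Pdxdc1, Gbp2b, St6galnac2, Lbp, Gpt2, Catspere2 and Apoc3. Other probe sets went the other way for Pdxdc1 (-0.37 and -1.04), Ube2ql1 (0.0809), Ifi44l (-0.00384), Rhobtb3 (-0.15, -0.40 and -0.0758) and Rfesd (0.0733); the cause was not tested. The 31 named probe sets without a call gained none under any setting, and changed sign in 55 of 615 values. No paired analysis was possible because the labels give the mice no shared replicate numbers. With 4 and 6 arrays and no detection calls, small differences and dim genes are bounded least well.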
